A study of Mus musculus with 6 samples.

Results

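The loci described here are those of the 6 GATA transcription factor genes, Gata1, Gata2, Gata3, Gata4, Gata5 and Gata6, and of the 2 genes of their FOG partners, Zfpm1 (FOG1) and Zfpm2 (FOG2). Their members are the rows of the authors' deposited peak table that carry one of these 8 genes in the gene column, which gave 50 of 70494 ATAC-seq peaks and 8 of 26796 genes. The choice used gene names and no measured value.

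The study asked how open chromatin of mouse definitive endoderm changes when the transcription factor OTX2 is removed. ATAC-seq measures open chromatin through a transposase that inserts adapters where DNA is exposed. All 6 libraries came from 1 line, 7H OTX2-dTAG-EGFP of a BL6/129 hybrid background, whose OTX2 carries a degron tag and EGFP in both groups. The cells were epiblast stem cells differentiated first with Activin A (40 ng/ml) plus CHIR (3 uM) over 16 h and then with Activin A (100 ng/ml) plus LDN (100 nM) over 24 h. From the primitive streak stage they received either DMSO, the solvent, or dTAG13, a small molecule that marks the tagged protein for degradation, for 24 h. Each group had 3 libraries of 50000 live sorted cells. The series' design calls them technical replicates, so p-values measure the spread between libraries and not between separate cultures or lines.

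GATA factors are zinc finger proteins that bind DNA at sequences built around the letters GATA. Gata1, Gata2 and Gata3 are known for their roles in blood, and Gata3 also in ectoderm, kidney and trophoblast. Gata4, Gata5 and Gata6 act in endoderm and heart, and Gata4 and Gata6 can engage closed chromatin. The FOG proteins do not bind DNA at these sequences themselves: they contact the amino-terminal zinc finger of a GATA factor and bring in co-repressors such as the NuRD complex and CtBP.

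The peaks that carry the changes are shown first. By the authors' deposited table, 6 of the 50 peaks had an adjusted p under 0.05, and all 6 were lower in dTAG13. The sequences of 5 of these follow with 4 more peaks, namely the uncalled peak with the smallest p and the 3 uncalled peaks that held an OTX match. Letters in capitals mark matches to AGATAA or AGATAG or TGATAA or TGATAG, the GATA motif searched, and to GGATTA, the OTX motif searched. Both strands were searched, so TTATCT or TTATCA is a GATA match and TAATCC an OTX match read on the other strand. All sequences are the plus strand of mm10, read from GRCm38.p6.
Gata1 start site, chrX:7967923-7968016, called: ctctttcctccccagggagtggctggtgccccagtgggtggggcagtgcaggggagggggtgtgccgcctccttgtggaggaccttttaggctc
Gata3 intergenic, chr2:9827670-9827906, called: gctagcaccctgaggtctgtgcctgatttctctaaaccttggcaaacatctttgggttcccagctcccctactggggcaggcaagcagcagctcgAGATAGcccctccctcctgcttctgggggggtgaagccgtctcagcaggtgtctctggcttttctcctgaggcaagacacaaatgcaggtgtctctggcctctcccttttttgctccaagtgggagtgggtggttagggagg
Gata3 intergenic, chr2:9852739-9852911, called: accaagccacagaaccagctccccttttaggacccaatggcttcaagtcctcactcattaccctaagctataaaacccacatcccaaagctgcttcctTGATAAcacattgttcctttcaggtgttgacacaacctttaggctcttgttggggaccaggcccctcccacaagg
Gata5 intergenic, chr2:180347218-180347366, called: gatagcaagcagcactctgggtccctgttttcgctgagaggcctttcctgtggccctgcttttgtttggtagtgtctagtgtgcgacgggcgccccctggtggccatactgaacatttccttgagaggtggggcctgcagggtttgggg
Zfpm1 intron, chr8:122291703-122291861, called: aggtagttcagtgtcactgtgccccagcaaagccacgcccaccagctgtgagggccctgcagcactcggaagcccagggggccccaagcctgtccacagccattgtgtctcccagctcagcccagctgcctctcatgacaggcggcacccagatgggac
Gata4 intron, chr14:63231206-63231432, smallest p among uncalled peaks: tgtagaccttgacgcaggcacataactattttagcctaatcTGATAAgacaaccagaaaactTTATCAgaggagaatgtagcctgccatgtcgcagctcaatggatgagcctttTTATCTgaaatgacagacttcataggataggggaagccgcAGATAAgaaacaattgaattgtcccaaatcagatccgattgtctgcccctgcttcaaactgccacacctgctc
Gata3 intergenic, chr2:9812982-9813167, uncalled with an OTX match: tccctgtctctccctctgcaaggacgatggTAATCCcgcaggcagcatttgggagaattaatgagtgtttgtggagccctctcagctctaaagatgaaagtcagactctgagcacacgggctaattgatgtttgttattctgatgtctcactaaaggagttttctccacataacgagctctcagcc
Gata4 intergenic, chr14:63305977-63306102, 126 of the 317 bases of an uncalled peak around its OTX match: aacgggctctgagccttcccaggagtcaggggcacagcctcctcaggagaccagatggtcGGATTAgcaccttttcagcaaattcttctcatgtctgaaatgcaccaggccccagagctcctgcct
Gata4 intergenic, chr14:63326069-63326285, uncalled with an OTX and a GATA match: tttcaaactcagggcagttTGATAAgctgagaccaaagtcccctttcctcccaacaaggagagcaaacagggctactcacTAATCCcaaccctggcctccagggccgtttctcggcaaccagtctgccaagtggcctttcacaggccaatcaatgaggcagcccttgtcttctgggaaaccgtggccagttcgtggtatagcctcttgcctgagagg

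Of the 50 peaks, most had values lower in dTAG13, and 5 of the 6 calls were at peaks outside promoters. The authors' deposited table held an adjusted p for every one of the 50 peaks, and 6 were called (12.0%), 6 lower and 0 higher. Of all 69128 peaks with an adjusted p, 5.26% were called, 3.79% lower and 1.47% higher. With the median of all peaks moved to 0, a shift of -0.18, or with that of each GC decile moved to 0, 3 of the 50 were called each time, all lower. That is 6.0% of the 50, beside 5.81% and 5.26% of all peaks under the same settings, so the share then lay near that of all peaks. An unadjusted p under 0.05 was given for 14 of the 50 peaks, all 14 lower. Of all 70494 peaks, 13903 (19.7%) had one in either direction, and 8965 of these were lower. The log2 fold change of dTAG13 over DMSO in the authors' deposited table was below 0 for 40 of the 50 peaks (80.0%), against 58.2% of all peaks. Its median was -0.60 (quartiles -1.48 and -0.14), against -0.18 (quartiles -1.01 and 0.39) over all peaks. Over the peaks within 100 kb of the start sites of these genes, whatever gene they were assigned to, the median was -0.27. Peaks of a gene share libraries and neighbourhood and are not independent of each other, and in bulk libraries fewer cells with a site open and less access per cell cannot be told apart.

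The 14 promoter peaks, within 1 kb of a start site by the authors' annotation, had a median log2 fold change of -0.20 in the authors' deposited table, and 1 of them was called lower. All promoter peaks had a median of 0.03, and 1.0% of them were called lower. The 36 peaks at other places had a median of -0.96 with 31 below 0 (86.1%), and 5 were called lower. All peaks at other places had a median of -0.38, and 5.06% of them were called lower. All 6 called peaks are among the 2599 peaks that the authors listed as enriched in DMSO, and none of the 50 is among the 882 they listed as enriched in dTAG13.

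**Figure D1:**
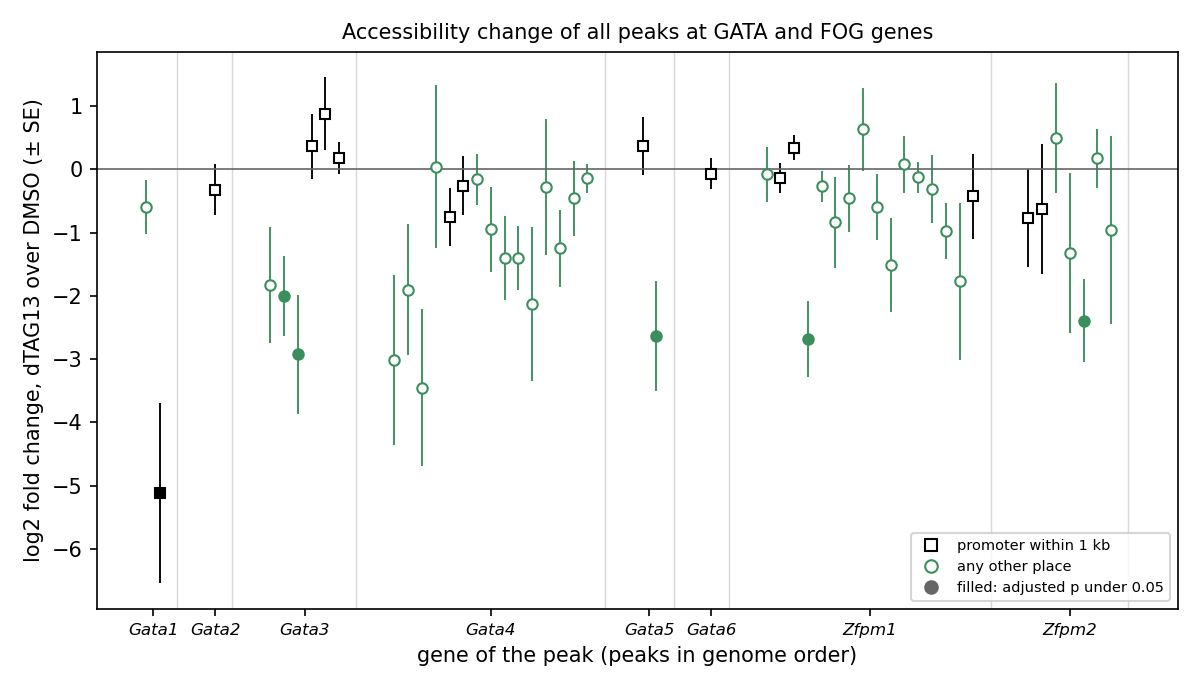
Log2 fold change of dTAG13 over DMSO (y axis, with the standard error of the authors' deposited table as bars) for each of the 50 peaks, in genome order within each gene (x axis). Squares are promoter peaks and circles peaks at other places, and the 6 filled symbols have an adjusted p under 0.05. Below 0 lie 31 of the 36 circles and 9 of the 14 squares.

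The deposited table gives 1 mean per peak, but its mean, fold change and standard error together allow the whole reads of the 6 libraries to be worked out. Reads of 49 of the 50 peaks were reconstructed this way, and those of the called Gata1 peak from its mean alone. They are given below as normalized counts, that is reads divided by the library's size factor. The largest difference between the refitted and the deposited log2 fold change was 1.72e-05. The libraries of a group are written here as a, b and c in order of size factor, since replicate numbers cannot be assigned to them. Counts were small: the 50 peaks held 1240, 1355 and 996 reads in the DMSO libraries and 717, 619 and 579 in the dTAG13 libraries. Size factors were 1.35, 1.31 and 1.09 in DMSO and 0.961, 0.823 and 0.78 in dTAG13, so every DMSO library was deeper than every dTAG13 library. The part of depth in the results, peak lists included, was not tested. Peaks without a read numbered 0, 0 and 1 of 50 in the DMSO libraries and 5, 10 and 7 in the dTAG13 libraries. As a check of the cell type, a promoter peak was present at 8 of 8 definitive endoderm markers (median mean normalized count 38.1), at 6 of 9 extraembryonic endoderm, 4 of 7 mesoderm, 5 of 6 epiblast, 5 of 5 neural and 3 of 6 blood markers (medians 14.6, 10.3, 19.6, 16.8 and 7.61). By the authors' deposited table, 3 of the 37 peaks at endoderm markers were called lower, all at Cxcr4, and 0 higher. In the same order, 2 of 33 (Cubn and Ttr), 1 of 12 (Kdr), 2 of 14 (Pou5f1 and Utf1), 0 of 25 and 0 of 13 peaks of the other lists were lower in the authors' deposited table. Higher were 2 extraembryonic peaks (Cubn and Srgn), 0 mesoderm, 1 epiblast (Nanog), 1 neural (Sox1) and 0 blood peaks. Over all peaks 3.79% were called lower and 1.47% higher. Of the marker peaks 28 of 37, 20 of 33, 6 of 12, 8 of 14, 18 of 25 and 7 of 13 had a fold change below 0. Over all peaks that share was 58.2%, and the part of the marker peaks in the results was not tested.

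Gata4, a driver of early endoderm and heart development, had 15 assigned peaks over its gene body and upstream region. Its intergenic peaks lie 34417 to 66975 bases from the nearest Gata4 start site. Start sites of Gm49390 or Gm5463 are nearer to them, at 3043 to 11636 bases, and some lie within those genes. Which gene these peaks act on was not tested. Of the 15, 14 had in the authors' deposited table a log2 fold change below 0, with a median of -0.95, but none passed an adjusted p of 0.05 and 5 had an unadjusted p under 0.05. Summed over the 15 peaks, the normalized counts were 218, 253 and 247 in DMSO and 127, 192 and 154 in dTAG13. All 3 DMSO sums lay above all 3 dTAG13 sums, and the ratio of the means was 0.659. No test was made of such sums. The DMSO peak list alone held 12 of the 15 peaks, so most entered the table through the group with the higher sums. The comparison of sums is a description. The sums rest on 294, 331 and 269 reads in DMSO and on 122, 158 and 120 in dTAG13.

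Within the Gata4 locus the lower values were spread over several sites. An intronic peak with 4 GATA matches, at chr14:63231206-63231432, read 7.40, 7.63 and 11.0 in DMSO and 0, 0 and 2.57 in dTAG13. Every DMSO library was above every dTAG13 library, and the authors' deposited table put the change at -3.45 on the log2 scale, with SE 1.24 and adjusted p 0.075. An intergenic peak at chr14:63305951-63306267, 34417 bases upstream of the nearest start site of the gene, holds the OTX match shown above. It read 12.6, 27.5 and 27.5 in DMSO and 10.4, 9.72 and 5.13 in dTAG13. Its groups did not overlap either, although the lowest DMSO library lay close to the highest dTAG13 library, and the authors' deposited table put the change at -1.40 on the log2 scale, with SE 0.51 and adjusted p 0.0798. The other upstream peak with an OTX match, at chr14:63326069-63326285, read 11.8, 13.7 and 15.6 in DMSO and 8.32, 6.08 and 2.57 in dTAG13. Here too the groups stood apart, and the authors' deposited table put the change at -1.25 on the log2 scale, with SE 0.61 and adjusted p 0.235.

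The strongest Gata4 peak did not follow this pattern. It lay 66975 bases upstream of the nearest start site of the gene, at chr14:63338468-63338866, and read 58.5, 71.0 and 72.5 in DMSO and 54.1, 77.8 and 51.3 in dTAG13. The groups overlapped, and the authors' deposited table put the change at -0.14 on the log2 scale, with SE 0.23 and adjusted p 0.784. The peak at the Gata4 start site, chr14:63245236-63245374, read 19.2, 29.8 and 16.5 in DMSO and 12.5, 7.29 and 19.2 in dTAG13. One dTAG13 library lay within the range of the DMSO libraries here, and the authors' deposited table put the change at -0.76 on the log2 scale, with SE 0.46 and adjusted p 0.353. Libraries could also disagree within a group. An intronic peak at chr14:63239571-63239688, singled out after its values were seen, read 0, 19.4 and 6.41 in the dTAG13 libraries. In 6 of the 15 Gata4 peaks every DMSO library was above every dTAG13 library, as in 15 of the 50 peaks of all 8 genes. The same separation was not computed over all peaks of the table. By adjusted p, a different and stricter measure, 0 of the 15 Gata4 peaks were called, beside 5.26% of all peaks. The pooled MACS2 list of DMSO alone held 12 of the 15 peaks, and both lists held 3.

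Gata6, which acts beside Gata4 in endoderm, had 1 assigned peak, at its start site (chr18:11052284-11052648). It read 59.2, 70.2 and 48.6 in DMSO and 61.4, 48.6 and 60.3 in dTAG13. The groups overlapped, and the authors' deposited table put the change at -0.07 on the log2 scale, with SE 0.24 and adjusted p 0.906. The gene column understates this locus, because 14 further peaks within 100 kb of the Gata6 start sites are assigned to the neighbouring gene 1010001N08Rik. Of the 15 peaks in that window 11 had a log2 fold change below 0, with a median of -0.57 in the authors' deposited table. Over all peaks 58.2% were below 0, with a median of -0.18. In the window 1 peak was called, beside 5.26% of all peaks. This one, at chr18:11097396-11097641, lies 38472 bases downstream of the nearest of the annotated Gata6 start sites. It fell by a log2 change that the authors' deposited table put at -2.16, with SE 0.59 and adjusted p 0.0127. It holds a GATA match and no OTX match.

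Gata5, the third member of the endoderm and heart group, had a peak at its promoter and 1 intergenic peak. The intergenic peak, at chr2:180347218-180347366 and 12593 bases upstream of the start site, read 10.4, 11.4 and 14.7 in DMSO and 2.08, 3.65 and 0 in dTAG13. All DMSO libraries were above all dTAG13 libraries, with DMSO 6.37-fold higher on average. Accessibility there fell: the authors' deposited table put the change at -2.64 on the log2 scale, with SE 0.87 and adjusted p 0.0464. Without dTAG13 library b the ratio was 11.7, and without dTAG13 library c it was 4.25. The reads were few (14, 15 and 16 in DMSO, 2, 3 and 0 in dTAG13). The call was lost with the median of all peaks moved to 0 (adjusted p 0.0639) and with that of each GC decile moved to 0 (adjusted p 0.0554). The Gata5 promoter peak at chr2:180334675-180334839 read 11.8, 12.2 and 14.7 in DMSO and 10.4, 21.9 and 18.0 in dTAG13. It overlapped between groups, and the authors' deposited table put the change at 0.37 on the log2 scale, with SE 0.46 and adjusted p 0.71.

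Gata3, which is known from T cells, trophoblast and several ectodermal tissues, had unlike values at its promoter and at its distant peaks. Its 3 intergenic peaks, downstream of the gene, summed to 40.0, 39.7 and 31.2 in DMSO and to 11.4, 4.86 and 7.7 in dTAG13, a ratio of 0.217. Its 3 promoter peaks summed to 79.2, 81.7 and 49.6 in DMSO and to 91.6, 75.3 and 93.6 in dTAG13, a ratio of 1.24. The intergenic sums did not overlap between groups, and the promoter sums did. All 3 intergenic peaks were found in the DMSO peak list alone, so they entered the table through the group in which they are higher, and the comparison of sums is a description.

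The intergenic Gata3 peak with 1 AGATAG match, at chr2:9827670-9827906 and 45884 bases downstream of the nearest start site of the gene, read 14.8, 19.8 and 16.5 in DMSO and 5.20, 4.86 and 2.57 in dTAG13. DMSO was 4.05-fold higher on average with no overlap, and the peak fell: the authors' deposited table put the change at -2.00 on the log2 scale, with SE 0.63 and adjusted p 0.0353. The one with a TGATAA match, at chr2:9852739-9852911 and 20847 bases downstream, read 14.8, 12.2 and 8.26 in DMSO and 2.08, 0 and 2.57 in dTAG13. It fell as well, with DMSO 7.59-fold higher and no overlap, and the authors' deposited table put the change at -2.92 on the log2 scale, with SE 0.94 and adjusted p 0.0405. Both calls were lost with the median of all peaks moved to 0 (adjusted p 0.0576 and 0.0548), and the second also with that of each GC decile (adjusted p 0.0953). The third intergenic peak, at chr2:9812982-9813167, holds the OTX match. It read 10.4, 7.63 and 6.42 in DMSO and 4.16, 0 and 2.57 in dTAG13, again without overlap, but the authors' deposited table put its log2 change at -1.83, with SE 0.91 and adjusted p 0.242. The strongest Gata3 promoter peak, at chr2:9879581-9879810, read 62.9, 57.2 and 35.8 in DMSO and 64.5, 53.5 and 60.3 in dTAG13. Its groups overlapped, and the authors' deposited table put the change at 0.18 on the log2 scale, with SE 0.25 and adjusted p 0.73.

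Gata1, the erythroid and megakaryocytic factor, had a peak at its start site and 1 further into the gene. The first, chrX:7967923-7968016, is centred 60 bases upstream of the start and read 7.40, 6.11 and 9.18 in DMSO and 0 in all 3 dTAG13 libraries. These are 10, 8 and 10 reads against none, reconstructed from the mean alone. Set against a floor of 3 reads per library (a mean of 3.54 normalized counts), DMSO was at least 2.14-fold higher. The authors' deposited table gave an adjusted p of 0.0145, and its log2 fold change of -5.12 (SE 1.42) is a fitted value for a group with no read. The stronger Gata1 peak, chrX:7966148-7966486 with 4 GATA matches, read 24.4, 19.1 and 33.0 in DMSO and 27.1, 14.6 and 7.70 in dTAG13. It overlapped between groups, and the authors' deposited table put the change at -0.60 on the log2 scale, with SE 0.43 and adjusted p 0.458. Gata2, which acts in blood stem and progenitor cells, had 1 promoter peak, chr6:88198522-88198723, at 22.2, 24.4 and 15.6 in DMSO and 18.7, 18.2 and 12.8 in dTAG13. The Gata2 values overlapped, and the authors' deposited table put the change at -0.32 on the log2 scale, with SE 0.41 and adjusted p 0.713.

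**Figure D2:**
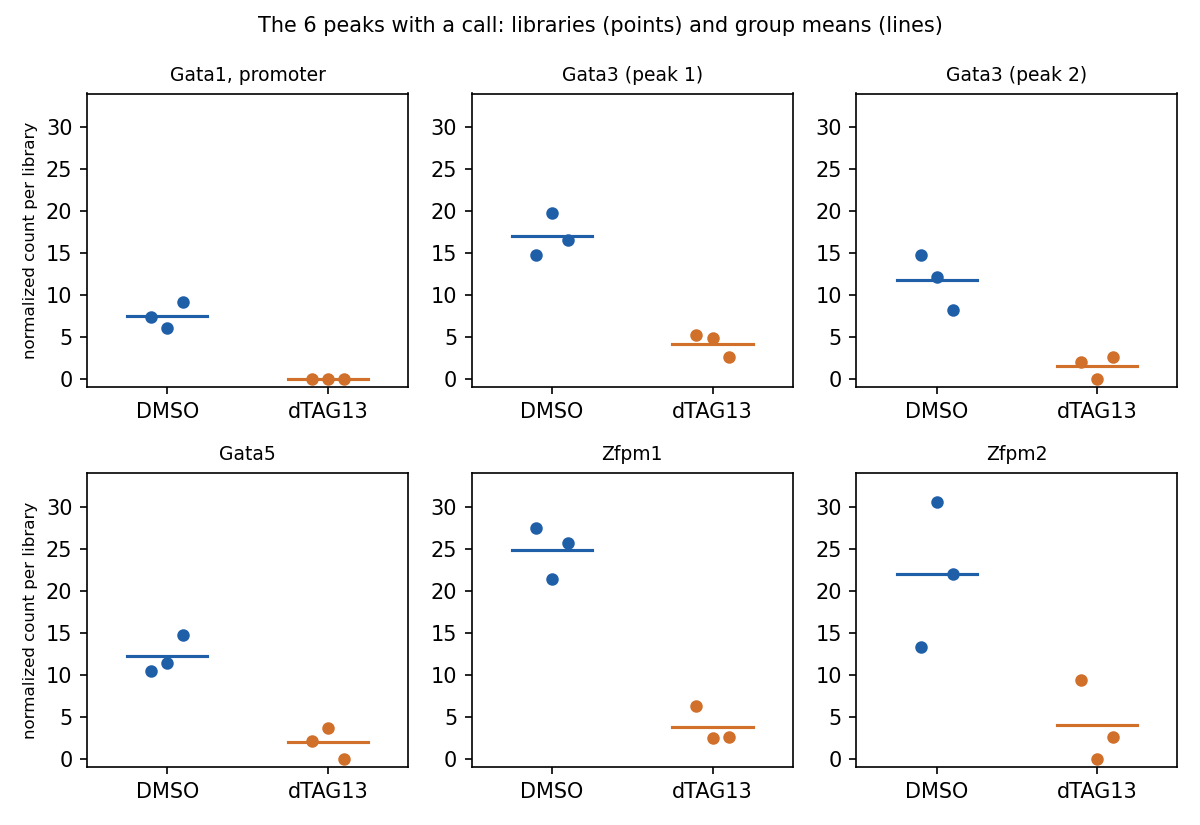
Normalized counts per library (y axis) of the 6 called peaks in DMSO and dTAG13 (x axis), with points for libraries and lines for group means. For Gata3, peak 1 starts at 9827670 and peak 2 at 9852739. In all 6 panels every DMSO point lies above every dTAG13 point, and the dTAG13 libraries of the Gata1 promoter peak all lie at 0.

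The FOG genes held both of the smallest adjusted p values among the 50 peaks. Zfpm1, whose product FOG1 is needed with GATA1 for red cells and platelets, had 16 peaks. The called one, chr8:122291703-122291861, lies 9641 bases downstream of the start site. The authors' annotation puts it in intron 1 of 15 of a transcript of Gm20388 (ENSMUSG00000092329), which overlaps Zfpm1. It read 27.4, 21.4 and 25.7 in DMSO and 6.24, 2.43 and 2.57 in dTAG13. All 3 DMSO libraries stood well above the dTAG13 libraries, with DMSO 6.62-fold higher. It fell: the authors' deposited table put the change at -2.68 on the log2 scale, with SE 0.60 and adjusted p 0.00148. It holds neither a GATA nor an OTX match.

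No other Zfpm1 peak was called. The promoter peak chr8:122281766-122282133, the strongest of all 50, read 59.2, 76.3 and 64.2 in DMSO and 92.6, 81.4 and 78.3 in dTAG13. It was the only one of the 50 in which every dTAG13 library lay above every DMSO library, but the authors' deposited table put its log2 change at 0.34, with SE 0.20 and adjusted p 0.355. Summed over the 13 Zfpm1 peaks at other places, counts were 260, 305 and 278 in DMSO and 188, 221 and 218 in dTAG13, a ratio of 0.744 without overlap. The 3 promoter peaks summed to 135, 142 and 119 in DMSO and to 153, 136 and 137 in dTAG13, with overlap. The DMSO peak list alone held 8 of the 16 Zfpm1 peaks, so these sums are a description. An intronic peak with 4 GATA matches, at chr8:122322743-122323043 and singled out after its values were seen, read 44.4, 55.7 and 69.7 in DMSO and 46.8, 51.0 and 56.4 in dTAG13. Its groups overlapped, although it is as rich in GATA matches as any of the 50, and the authors' deposited table put the change at -0.13 on the log2 scale, with SE 0.25 and adjusted p 0.811.

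Zfpm2, whose product FOG2 works with GATA4 in heart and gonad, had 7 mostly weak peaks. The called one, in intron 3 of 7, read 13.3, 30.5 and 22.0 in DMSO and 9.36, 0 and 2.57 in dTAG13. The groups did not overlap, but dTAG13 library a was close to the lowest DMSO library. DMSO was 5.52-fold higher on average, 17.1-fold without dTAG13 library a and 3.68-fold without dTAG13 library b. The peak fell: the authors' deposited table put the change at -2.39 on the log2 scale, with SE 0.65 and adjusted p 0.0121. The call was lost with the median of each GC decile moved to 0 (adjusted p 0.0823). It is the only called peak of the 6 with an OTX match, and it also holds 2 GATA matches. The strongest promoter peak of Zfpm2, chr15:40654962-40655065, read 5.18, 9.16 and 7.34 in DMSO and 6.24, 3.65 and 2.57 in dTAG13. Both groups overlapped there, and the authors' deposited table put the change at -0.77 on the log2 scale, with SE 0.78 and adjusted p 0.624. Another intron 3 peak, chr15:40864459-40864632, was at 16.3, 14.5 and 10.1 in DMSO and 20.8, 9.72 and 15.4 in dTAG13. These also overlapped, and the authors' deposited table put the change at 0.17 on the log2 scale, with SE 0.47 and adjusted p 0.881.

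**Figure D3:**
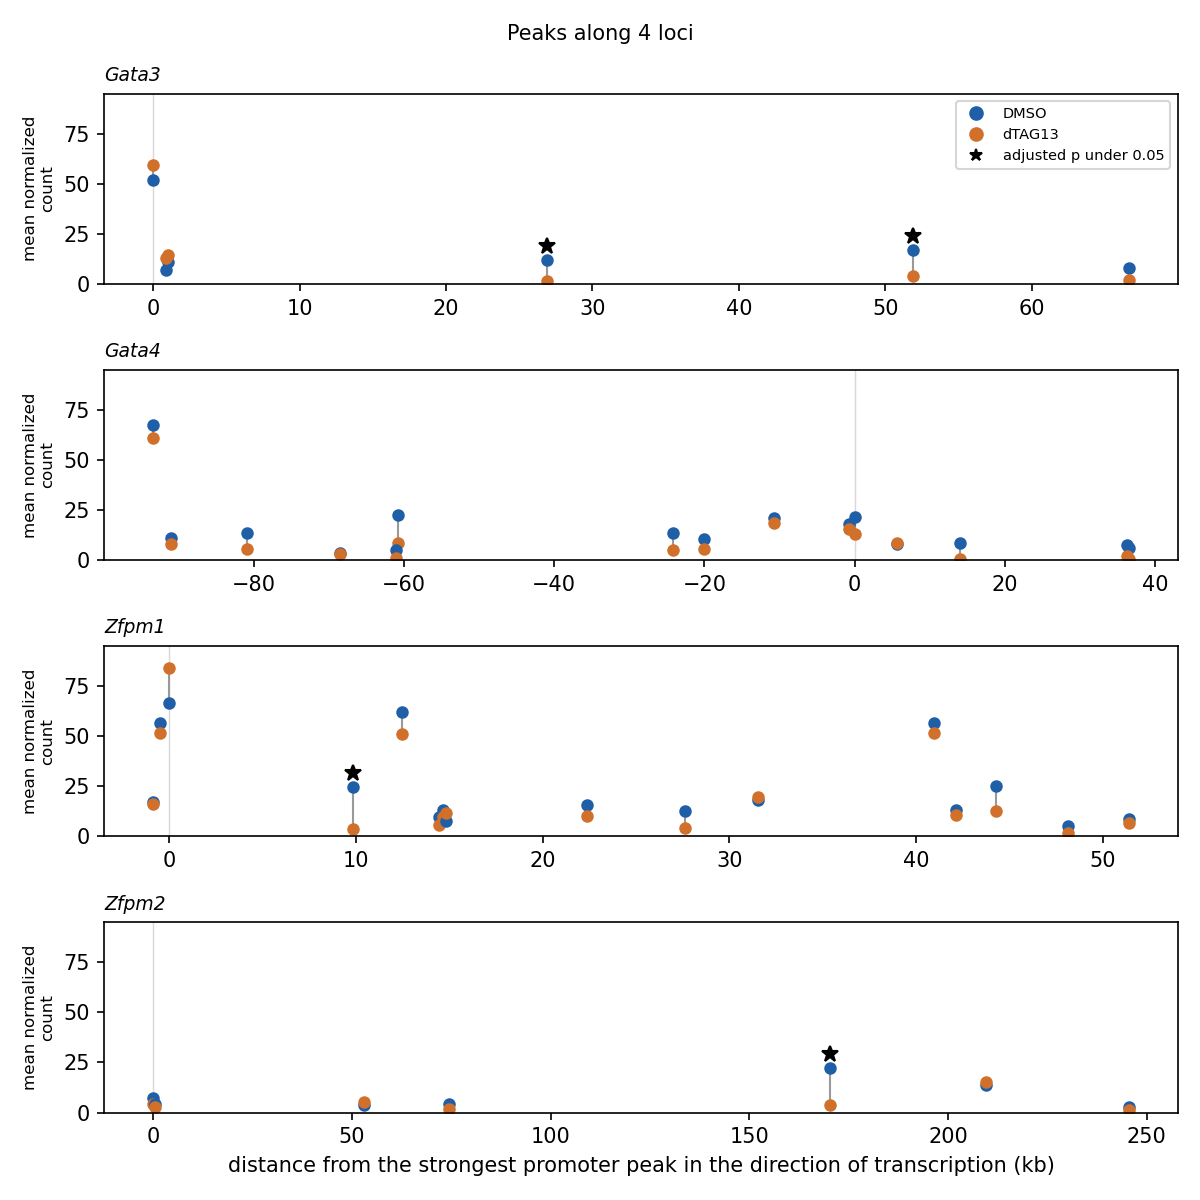
Mean normalized counts of the DMSO and dTAG13 libraries (y axis) for the peaks of Gata3, Gata4, Zfpm1 and Zfpm2, by distance in kb from the gene's strongest promoter peak in the direction of transcription (x axis). Stars mark an adjusted p under 0.05, and all of them sit away from the promoter peak.

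Added up over genes, the 14 promoter peaks summed to 365, 401 and 296 in DMSO and to 363, 329 and 371 in dTAG13, with the same mean of 354. This total is led by a few strong promoters, and genes differed. The promoter ratio of dTAG13 over DMSO was 0.603 at Zfpm2 without overlap and 0.713 at Gata4 with overlap, and the Gata1 promoter peak had no dTAG13 read. The 36 peaks at other places summed to 553, 634 and 618 in DMSO and to 383, 423 and 372 in dTAG13, a ratio of 0.653 without overlap. The sums at other places did overlap at Zfpm2 and Gata1.

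Most of these 36 peaks entered the table through the group in which they were higher: 25 were found in the DMSO peak list alone and 9 in the lists of both groups, against 6 and 7 of the 14 promoter peaks. The 25 had a median log2 fold change of -1.40 in the authors' deposited table, beside -1.37 for all peaks of the same kind, so their values lay near those of other DMSO-only peaks. The 9 peaks in both lists summed to 276, 310 and 304 in DMSO and to 257, 270 and 254 in dTAG13. Their groups stood apart by a smaller step, with a ratio of 0.878. Of the 9, 7 were below 0 in the authors' deposited table, with a median of -0.14 and none was called, beside a median of 0.08 for all peaks of the same kind.

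**Figure D4:**
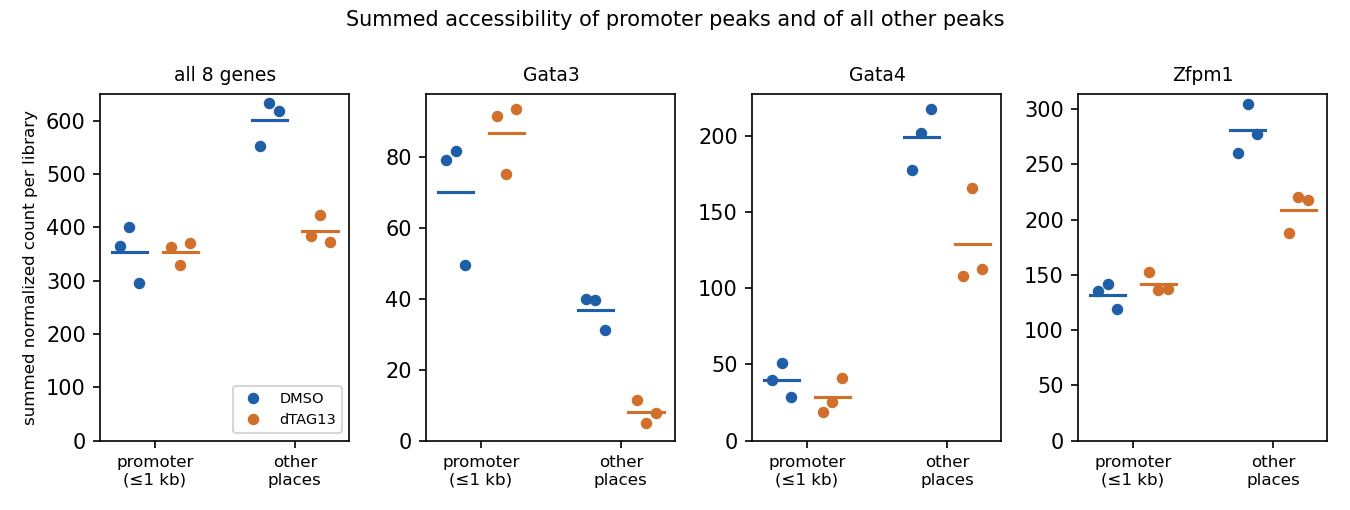
Summed normalized counts per library (y axis) for promoter peaks and for peaks at other places (x axis), over all 8 genes and for Gata3, Gata4 and Zfpm1. Points are libraries and lines group means. In these 4 panels the promoter sums of the groups overlap and the sums at other places do not, whereas at Zfpm2 and Gata1, which are not drawn, it is the reverse.

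Peaks had also been called on the pooled libraries of each group, which gives a list per group. Both lists held 16 of the 50 peaks (32.0%, Wilson 95% interval 20.8 to 45.8), the DMSO list alone 31 (62.0%) and the dTAG13 list alone 3 (6.0%). Over all peaks these shares were 48.2%, 40.1% and 11.8%. All 6 called peaks were in the DMSO list alone. The intervals cover counting error over peaks only.

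In sequence, GATA matches were found in 19 of the 50 peaks (38.0%, Wilson 95% interval 25.9 to 51.8), with 36 matches in all. The share was 25.2% of all peaks and 26.5% of all peaks of like length, and 51.8% of all peaks called lower. Of the 6 called peaks 3 had one, both at Gata3 and the one at Zfpm2. Gata4 and Zfpm1 had 6 peaks with a GATA match each, Zfpm2 had 4, Gata3 had 2 and Gata1 had 1. OTX matches were found in 4 of the 50 peaks (8.0%, interval 3.15 to 18.8), against 7.07% of all peaks. Among all called peaks, 35.2% of the lower and 1.77% of the higher ones held GGATTA, and among the called GATA and FOG peaks 1 of 6 did. Of the 4 peaks with an OTX match, all had every DMSO library above every dTAG13 library, as had 2 of the 3 peaks with the reversed letters ATTAGG. The called Zfpm2 peak holds both motifs and is in both counts. Among all 50 peaks 15 had this separation, which was not computed over all peaks of the table. All 4 peaks with an OTX match were found in the DMSO peak list alone. They thus entered the table through the group in which they are higher, so their separation is a description only. Of all peaks in the DMSO list alone at places other than promoters, 94.7% had a log2 fold change below 0. For the 4, the authors' deposited table put their log2 changes between -2.39 and -1.25. The reversed letters ATTAGG, searched as a control of equal composition, were in 3 of the 50 (6.0%, and 5.67% of all peaks). Among all called peaks, 17.4% of the lower and 6.1% of the higher ones held them, so this control too was more frequent among lower peaks. SOX matches (ACAAAG or ACAATG) were in 16.0% of the 50 and 19.0% of all peaks, FOX matches (TGTTTAC or TATTTAC) in 6.0% and 6.46%, TEAD matches (GGAATG) in 6.0% and 8.89%, and TCF matches (TTCAAAG) in 2.0% and 2.67%. The T-box letters AGGTGTGA were in 0 of the 50 and in 1.42% of all peaks. In the RefSeq promoter table of the same build, 6 promoters of 5 of the 8 genes matched by symbol. GGATTA was in none of these 6 and in 7.06% of all 32851 promoters, while a GATA match was in the Gata3 promoter alone of the 6 and in 29.8% of all.

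The authors' deposited table also marks genes whose expression went down or up in a comparison that its header does not describe. Gata3 and Gata4 carry the down mark, as do 370 of the 26796 genes (1.38%). None of the 8 carries the up mark, which 429 genes (1.6%) have. The other 6 genes carry neither.

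Genes that work with GATA factors were read from lists chosen with earlier results of these data known. Of 75 peaks at 14 of 16 GATA co-factor genes, 4 were called lower and 0 higher, 5.33% against 5.26% of all peaks. In the authors' deposited table these were an intergenic peak of the heart factor Tbx20 (log2 fold change -2.33, adjusted p 0.00145) and an intron peak of the BMP effector Smad1 (-2.36, adjusted p 0.00321). They also included a peak of Lmo2, which bridges GATA1 and TAL1 in blood cells (log2 fold change -5.40, SE 1.38, adjusted p 0.0069), and one of its partner Ldb1 (-2.58, adjusted p 0.0334). The Lmo2 peak was weak, with a mean normalized count of 4.57, and the reads behind its fold change were not reconstructed. Of 42 peaks at 13 genes of NuRD and CtBP proteins, which FOG proteins bind, 0 were lower and 1 higher. That is 2.38% against 5.26% of all peaks. The higher one lies at the co-repressor gene Ctbp2 (0.73 on the log2 scale with adjusted p 0.0489, per the authors' deposited table). Of 32 peaks at 3 of 4 other genes with GATA-type zinc fingers, 0 were lower and 2 higher. That is 6.25%, near the 5.26% of all peaks. Both higher peaks lie at Trps1, which encodes a repressor at GATA sites (1.69 and 2.22 on the log2 scale with adjusted p 0.00547 and 0.00632, per the authors' deposited table).

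Of 53 peaks at 15 of 16 endoderm genes described as targets of GATA4 or GATA6, 6 were called lower and 1 higher, 13.2% in all against 5.26% of all peaks. In the authors' deposited table the lower ones included peaks at Hnf4a (log2 fold change -2.54, adjusted p 0.0408), a regulator of gut and liver genes, and at Ttr (-1.89, adjusted p 0.0364), which encodes a thyroid hormone carrier. Basement membrane genes had calls in the authors' deposited table as well: Col4a2 had 1 lower peak (log2 fold change -2.51, adjusted p 0.0163), and Lamc1 had 2 lower peaks (-1.22 and -1.98, adjusted p 0.0449 and 0.0496) and 1 higher peak (1.82, adjusted p 0.0118). With the median of all peaks moved to 0, 2 peaks of this list were lower and 2 higher.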

How the data were processed

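ATAC-seq libraries of 3 DMSO and 3 dTAG13 samples were used as the authors had processed them. The submitters' processing notes name fastp, Bowtie2, MACS2, featureCounts, HOMER 4.11, ChIPseeker and build mm10. The tool of the test, read filters, duplicate handling and peak threshold are not given in the sources used here. Peaks were called on the pooled libraries of each group, per the file names. The deposited signal is a mean over 6 libraries of reads divided by size factors. Log2 fold changes, standard errors, scores (fold change over standard error) and p-values were taken as the authors deposited them, and negative log2 values stand for higher DMSO, per the file headers. Calls used the deposited adjusted p under 0.05, adjusted over 69128 peaks. No test was run on the reconstructed reads.

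Size factors were found from peaks with reads in 1 group only, of which 819 of 854 (DMSO) and 157 of 225 (dTAG13) gave whole reads. For 49 of the 50 peaks the reads were chosen as those that return the deposited mean, fold change and standard error. Of the 300 read counts 212 (70.7%) were even; whether both ends of a fragment were counted is not given. The functions were tested on simulated data. All 70494 peaks lie within GRCm38.p6, and 1000 of 1000 RefSeq promoters compared were identical in sequence. Start sites came from GENCODE, and positions are 1-based.

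The members, lists and tests were chosen with earlier results of these data known. Named peaks were every called peak and, per gene, the strongest promoter peak within 1 kb, the strongest peak and the one with the smallest p. Peaks with an OTX match were added after their values were seen, and others are said to have been singled out. Of the lists, genes with a called peak were named. A called list gene (kept in the counts) and the sequence of a called peak are not reported here. Alternatives covered the threshold, the zero point of fold changes, the filter on weak peaks, gene assignment, list overlap and motif window. Python 3.11.15, numpy 2.4.6, pandas 2.3.3, scipy 1.17.1 and matplotlib 3.10.9 were used.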

Additional observations from a re-analysis of the deposited data

How the results depend on the processing

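The 50 peaks had 6 calls, all lower. With the median of all peaks moved to 0 (a shift of -0.18) there were 3 (6.0%, beside 5.81% of all peaks), and with the median of each GC decile moved to 0 there were 3 (beside 5.26%). Under the first, adjusted p rose to 0.0639 for the called Gata5 peak and to 0.0576 and 0.0548 for those of Gata3. Under the second it rose to 0.0554 for Gata5, 0.0953 for the Gata3 peak at 9852739 and 0.0823 for Zfpm2. The other settings gave 5 to 8 calls, none higher except 1 within 100 kb of start sites. With an adjusted p under 0.1, 8 of the 50 were called, beside 9.1% of all peaks. The peaks within 100 kb are a larger set, of which 6 were called lower and 1 higher, beside 5.26% of all peaks. The median log2 fold change stayed below 0, from -0.69 to -0.27. The value of -0.27 is that of the peaks within 100 kb, and it lay nearer the -0.18 of all peaks. The TEAD share was 2.0% with 50 bases on each side of the midpoint. NuRD and CtBP genes had 0 calls with a fold threshold, 2 with the median of all peaks at 0 and 0 with that of shared peaks at 0. The endoderm targets had 4 calls under the first and 4 under the GC setting. The cause of these shifts was not tested. Chosen after seeing the data, leaving out 1 library at a time gave DMSO over dTAG13 ratios of 3.68 to 17.1 for Zfpm2, 4.25 to 11.7 for Gata5, 3.39 to 4.59 and 5.06 to 11.3 for Gata3, and 5.63 to 9.94 for Zfpm1. No paired analysis was possible because the reconstructed libraries carry no replicate number. Few reads per peak limit the precision throughout.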

Other observations

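Within 100 kb of the start sites, the Gata3 neighbourhood also held a called peak that was higher in dTAG13. It lies in an intron of Taf3, at chr2:9936055-9936241 and 46114 bases upstream of the nearest Gata3 start site, and the authors' deposited table put its log2 change at 1.29, with SE 0.39 and adjusted p 0.0298. It holds a GATA match and no OTX match. Of the peaks within 100 kb, the log2 fold change was below 0 for 11 of 18 at Gata1, 4 of 9 at Gata2, 5 of 12 at Gata3, 20 of 24 at Gata4, 6 of 12 at Gata5, 11 of 15 at Gata6, 19 of 32 at Zfpm1 and 3 of 5 at Zfpm2, beside 58.2% of all peaks. Calls in these windows numbered 1, 0, 3, 0, 1, 1, 1 and 0 in the same order, beside 5.26% of all peaks.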
